A study of Homo sapiens with 5 samples.

Results

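The calls of the histone methyltransferase EZH2 and of its product, trimethylated lysine 27 of histone H3 (H3K27me3), were set against each other in HT1376 cells given the vehicle DMSO. HT1376 is a line long kept in culture, from a carcinoma of the bladder. Formaldehyde-fixed chromatin was precipitated with each antibody and sequenced (ChIP-seq), which gave 1 list of called intervals per antibody and treatment, after 8 days in DMSO or in 250 nM CPI-0209, an inhibitor of EZH2. One of the labels' protocols names 4 days as well, and the 8 days are those of the treatment protocol. Overlapping rows of a list were merged into domains, which gave 18639 EZH2 domains and 21641 H3K27me3 domains in DMSO cells, 40280 of the 83524 domains in the 4 lists of the series. Domains of both lists that shared at least 1 bp were then joined into combined domains, of which each held both, EZH2 only or H3K27me3 only. Each group had 1 library, so no difference had a replicate check and no test was run. Limits given with percents are exact (Clopper-Pearson) 95% limits, which cover counting error only, and neighbouring domains and genes are not independent.

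Polycomb repressive complex 2 (PRC2) methylates H3K27 through its enzyme EZH2, held together with EED and SUZ12. EED binds H3K27me3 and stimulates the enzyme, so the mark can be extended along the chromatin away from the place where the complex was recruited. In mammals PRC2 collects at unmethylated CpG-rich promoters of developmental regulators, and H3K27me3 there goes with repression. CPI-0209 blocks the catalytic step and does not remove the protein.

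The promoters of 6 genes show the kinds of start at which the 3 classes were called. They belong to the first 2 genes of each class in order of domain width that have a promoter entry at the scored start. SOX4, a developmental transcription factor (chr6:21593551-21593750, plus strand), and COL4A2, a basement membrane collagen chain (chr13:110307084-110307283, plus strand), lay under both. TUBB, a beta-tubulin (chr6:30720152-30720351, plus strand), and PRM2, a sperm protamine (chr16:11276481-11276680, minus strand), lay under EZH2 only. E2F3, a cell cycle transcription factor (chr6:20401679-20401878, plus strand), and PPIH, a spliceosomal cyclophilin (chr1:42658223-42658422, plus strand), lay under H3K27me3 only. Each sequence is the 200 bases before the start, 5′ to 3′ on the strand of the gene, from RefSeq on GRCh38.p14, with CpG dinucleotides in capitals.
SOX4: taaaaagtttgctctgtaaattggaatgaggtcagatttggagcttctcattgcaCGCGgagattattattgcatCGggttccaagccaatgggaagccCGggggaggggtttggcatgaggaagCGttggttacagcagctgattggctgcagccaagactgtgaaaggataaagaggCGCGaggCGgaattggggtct
COL4A2: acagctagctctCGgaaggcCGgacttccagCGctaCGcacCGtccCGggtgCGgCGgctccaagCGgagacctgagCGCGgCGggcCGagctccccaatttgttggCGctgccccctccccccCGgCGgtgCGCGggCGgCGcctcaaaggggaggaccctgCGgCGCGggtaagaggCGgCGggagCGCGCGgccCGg
TUBB: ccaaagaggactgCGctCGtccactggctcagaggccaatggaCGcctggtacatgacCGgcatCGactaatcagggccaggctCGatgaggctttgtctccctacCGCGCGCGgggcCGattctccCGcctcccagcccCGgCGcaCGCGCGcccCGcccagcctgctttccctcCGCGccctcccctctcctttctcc
PRM2: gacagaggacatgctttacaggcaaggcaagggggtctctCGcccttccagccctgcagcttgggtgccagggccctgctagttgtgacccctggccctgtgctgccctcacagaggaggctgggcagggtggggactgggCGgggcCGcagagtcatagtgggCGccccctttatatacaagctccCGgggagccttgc
E2F3: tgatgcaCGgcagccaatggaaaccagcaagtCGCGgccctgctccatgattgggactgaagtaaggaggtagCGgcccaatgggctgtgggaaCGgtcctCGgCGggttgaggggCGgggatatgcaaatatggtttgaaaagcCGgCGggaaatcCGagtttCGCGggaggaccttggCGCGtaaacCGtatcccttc
PPIH: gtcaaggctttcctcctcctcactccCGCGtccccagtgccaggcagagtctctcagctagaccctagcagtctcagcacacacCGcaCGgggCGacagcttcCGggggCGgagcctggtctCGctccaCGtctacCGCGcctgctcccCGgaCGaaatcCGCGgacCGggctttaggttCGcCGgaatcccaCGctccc
The printed stretches hold 8 CpG at SOX4, 29 at COL4A2, 20 at TUBB, 5 at PRM2, 16 at E2F3 and 19 at PPIH. These 6 were picked by domain width, not as typical of their classes, and the composition over all promoters is given further on.

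The EZH2 list covered less length than the H3K27me3 list, and a larger share of it was common to both. EZH2 covered 193.4 Mb and H3K27me3 315.1 Mb, with 139.6 Mb under both, which is 72.2% of the EZH2 length and 44.3% of the H3K27me3 length. By number, 10840 EZH2 domains (58.2%, 57.4 to 58.9) touched H3K27me3, and 8109 H3K27me3 domains (37.5%, 36.8 to 38.1) touched EZH2. The combined domains numbered 29087. Both were called in 7756 of them (26.7%), EZH2 alone in 7799 (26.8%) and H3K27me3 alone in 13532 (46.5%). The 2 lists differ in how often rows overlap, with 17.8% of the EZH2 length and 62.7% of the H3K27me3 length lying under 2 rows, and what a second row stands for is not stated. Counted over stretches under 2 rows alone, 10.8% of the H3K27me3 length and 12.1% of its domains had EZH2. With the H3K27me3 list shortened to the EZH2 length by its widest domains, 59.7% of the H3K27me3 length lay under EZH2, so that more of it lay under EZH2 than outside, 37.3% of EZH2 domains touched the mark and 79.0% of H3K27me3 domains touched EZH2.

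Domains with both were the widest. Their median width was 18.0 kb, with quartiles of 10.2 and 32.6 kb, and they took 57.5% of the combined span. Domains with H3K27me3 alone had a median of 6.6 kb (4.2 to 10.0 kb) and took 29.9%. Domains with EZH2 alone were the narrowest, at 4.2 kb (2.8 to 6.8 kb), and took 12.5%. A combined domain with both is at least as wide as its parts, so the width of single-list domains was examined too. Among EZH2 domains, 12.6% (10.4 to 15.2) of those under 2 kb and 33.8% (32.5 to 35.0) of those of 2 to 5 kb touched H3K27me3, against 80.1% (78.7 to 81.3) at 10 to 20 kb and 91.5% (88.8 to 93.7) at 40 kb and wider. Among H3K27me3 domains the rise came at greater widths, from 11.5% (10.5 to 12.4) at 2 to 5 kb through 45.7% (44.3 to 47.0) at 10 to 20 kb to 97.0% (96.0 to 97.8) at 40 kb and wider. A wider domain has more positions at which 1 bp can be shared. The share of length, which does not gain from that in the same way, rose as well, from 9.21% under EZH2 in H3K27me3 domains of 2 to 5 kb to 72.6% in those of 40 kb and wider. From 2 to 40 kb an EZH2 domain was more often on the mark than an H3K27me3 domain of like width was on EZH2, with limits that did not overlap, and at 40 kb and wider the order was turned.

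**Figure D1:**
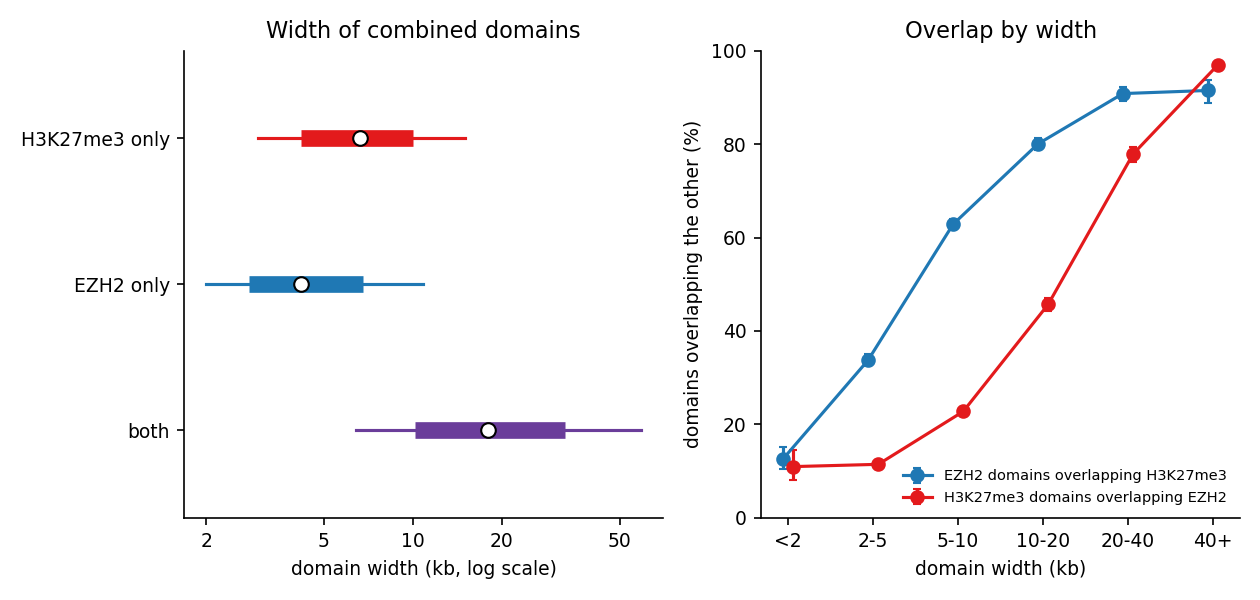
Left, width in kb (log axis) of combined domains in DMSO cells by class, with the median (circle), quartiles (thick bar) and the 10th to 90th percentile (thin line). Right, percent of EZH2 and of H3K27me3 domains that share at least 1 bp with the other, by domain width, with exact 95% limits as bars. Domains with both sit at a median of 18.0 kb, and both curves climb with width, EZH2 at smaller widths than H3K27me3.

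Within domains carrying both, the mark usually enclosed the enzyme. H3K27me3 reached as far as EZH2 or further on both sides in 5198 of 7756 domains (67.0%, 66.0 to 68.1). EZH2 reached as far or further on both sides in 626 (8.07%), each reached further on one side in 1833 (23.6%), and the ends coincided in 99 (1.28%). One domain of each kind was the common make-up (5755 domains, 74.2%), at a median of 14.0 kb. In 1678 domains (21.6%) a single H3K27me3 domain, in a median span of 43.4 kb, held 2 or more separate EZH2 domains. The reverse, 1 EZH2 domain over 2 or more H3K27me3 domains, was found in 149 (1.92%). Median length within these domains was 10.0 kb for EZH2 and 17.2 kb for H3K27me3, and the mark was the longer in 6563 (84.6%).

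EZH2 lay over the middle of H3K27me3 domains more than over their ends. Across 8066 H3K27me3 domains of 2 kb or wider with EZH2, cut into 10 equal parts, EZH2 covered 79.9% of the 2 middle parts and 42.3% of the 2 end parts. Middle and end gave 90.1% and 42.1% at 5 to 10 kb, 78.1% and 34.9% at 10 to 20 kb, and 78.2% and 53.9% at 40 kb and wider. Seen from EZH2, H3K27me3 covered 97.5% of the middle parts of 10741 EZH2 domains and 90.2% of the end parts. A run enclosed in a longer one covers the middle more often than the ends wherever it lies, so the place of EZH2 was also measured free of width. This used the 3860 domains in which 1 EZH2 domain (median 7.0 kb) lay inside 1 H3K27me3 domain (median 14.8 kb). An off-centre index of 0 means equal flanks and 1 means that EZH2 touches an end. The median index was 0.55. The 5 equal steps of the index held 18.2%, 18.8%, 16.4%, 17.7% and 13.6% of the domains, and 590 (15.3%) touched an end. By this measure EZH2 was spread over the room inside the mark, without a heap at the centre. The nearer flank had a median of 1.0 kb and the farther one 4.2 kb.

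**Figure D2:**
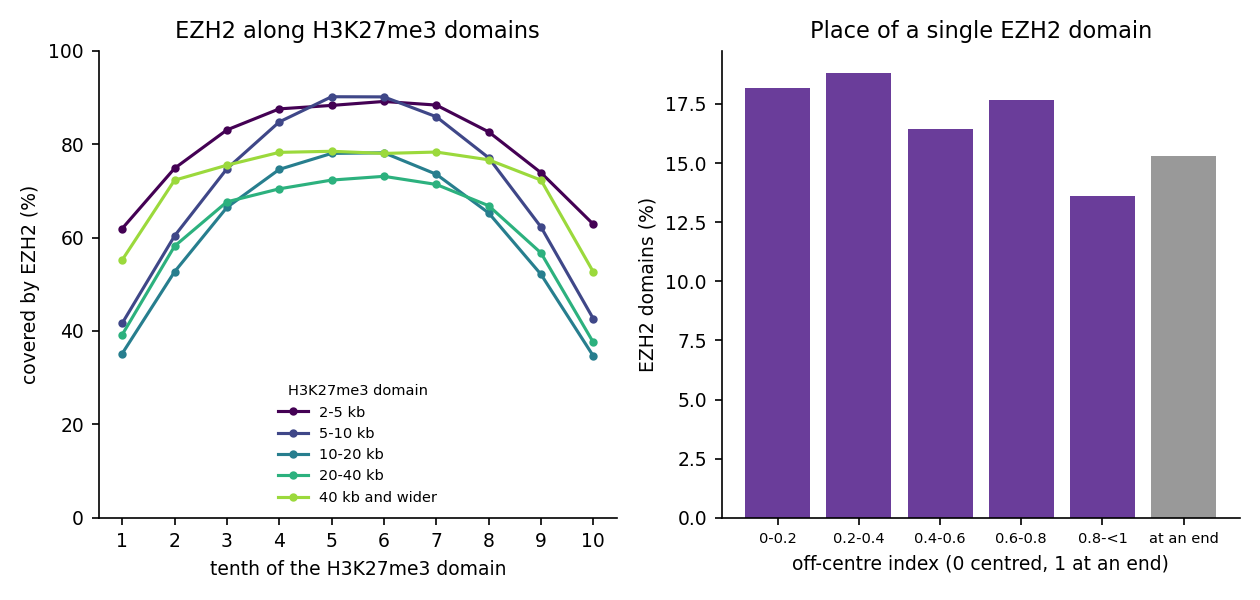
Left, percent of each of 10 equal parts of H3K27me3 domains covered by EZH2, by width of the H3K27me3 domain, for domains that touch EZH2. Right, percent of 3860 single enclosed EZH2 domains by off-centre index, with those that touch an end in grey. Cover falls from the middle to both ends in each width group, while the index is spread from 18.2% in the most central step to 13.6% in the last one before the end.

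The mark extended a short way past the enzyme. Over the 15512 sides of domains with both, H3K27me3 reached past the outermost EZH2 on 11419 (73.6%), EZH2 reached past H3K27me3 on 2822 (18.2%), and 1271 (8.19%) ended together. The median difference was 1.4 kb, with quartiles of 0 and 4.4 kb. On the sides where the mark went further the median was 2.6 kb, and where EZH2 went further it was 1.0 kb. A spread of 10 kb or more was found on 1448 sides (9.33%) and of 50 kb or more on 7, the longest being 66.0 kb. The median grew from 0.6 kb in domains of 5 to 10 kb to 2.6 kb at 20 to 40 kb, and was 2.2 kb at 40 kb and wider. It was 2.6 kb with the H3K27me3 list shortened to its widest domains and 2.2 kb over stretches under 2 rows alone. The former setting keeps only wide domains of the mark. The latter keeps 17.8% of the EZH2 length and 62.7% of the H3K27me3 length. Both can lengthen the spread by construction, so neither is a check of it.

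The spread had the same median on the upstream and the downstream side of a gene start. In 1937 domains whose single protein-coding start lay within the EZH2 span, the median spread past EZH2 was 1.0 kb upstream (quartiles 0 and 3.6 kb) and 1.0 kb downstream (−0.2 and 3.2 kb). The mark went further upstream in 985 domains and further downstream in 889. EZH2 itself was shifted into the gene. It reached a median of 3.96 kb upstream and 4.94 kb downstream of the start, and further downstream in 1216 of the 1937 (62.8%).

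Domains of a single kind were seldom just beside the other. The gap from an EZH2-only domain to the nearest H3K27me3 had a median of 77.8 kb (quartiles 27.6 and 182.0 kb), and 513 of 7799 (6.58%) lay under 5 kb from it. For H3K27me3-only domains the gap to the nearest EZH2 had a median of 32.7 kb (11.6 and 82.6 kb), with 1568 of 13532 (11.6%) under 5 kb. At 100 kb or more from the other were 3344 EZH2-only domains (42.9%) and 2834 H3K27me3-only domains (20.9%). Of the 175.5 Mb of H3K27me3 outside EZH2, 65.1 Mb flanked EZH2 in the same domain and 110.4 Mb was in domains with no EZH2.

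The 3 classes differed in gene content. A protein-coding start lay within 2 kb of 4148 EZH2-only domains (53.2%, 52.1 to 54.3), of 2578 domains with both (33.2%, 32.2 to 34.3) and of 904 H3K27me3-only domains (6.68%, 6.27 to 7.11). Starts are those of the 15813 protein-coding genes with a strand in the reference, which leaves out 4161, those of chromosome 8 among them, so these shares and densities are undercounts. In the same order, domains of 5 to 10 kb gave 51.6%, 34.4% and 6.14%, and those of 10 to 20 kb 45.7%, 28.6% and 8.69%. The density of starts was 104.9 per Mb in EZH2-only domains, 13.9 in domains with both and 6.19 in H3K27me3-only domains, over all widths. It was 89.4, 46.2 and 6.50 per Mb in domains of 5 to 10 kb and 43.9, 20.5 and 5.63 in those of 10 to 20 kb, so that the gap between EZH2 only and both was smaller at like width. Away from these starts, a protein-coding gene record was overlapped by 28.2% of EZH2-only domains, 34.8% of domains with both and 36.8% of H3K27me3-only domains, and no gene record of any kind by 9.78%, 13.7% and 34.8%. Domains with both held up to 11 starts, EZH2-only domains up to 6 and H3K27me3-only domains up to 2. In the same order, 2 or more starts lay in 384 of 7756, 764 of 7799 and 27 of 13532 domains. Holding several starts was thus more frequent in EZH2-only domains than in those with both.

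Seen from the genes, EZH2 without its mark was the most frequent call at a start. Of 15813 starts, 2772 had both within 2 kb (17.5%, 16.9 to 18.1), 5179 EZH2 only (32.8%, 32.0 to 33.5), 1088 H3K27me3 only (6.88%, 6.49 to 7.29) and 6774 neither (42.8%). The 4161 genes with no strand in the reference were scored at both ends of the record, and 559 had both calls at both ends. Both calls met at 9.73% of starts with the H3K27me3 list shortened and at 6.91% over stretches under 2 rows alone. Around the 2772 starts with both, EZH2 fell off faster with distance than its mark. Downstream of the start it covered 94.6% of the first kb, 57.1% of the kb from 4 to 5 kb and 38.2% of the kb from 9 to 10 kb, while H3K27me3 covered 88.0%, 69.8% and 54.4%. At 49 to 50 kb downstream, which lies beyond the end of a short gene, EZH2 covered 23.6% and H3K27me3 36.4%. Around the 5179 starts with EZH2 only, EZH2 fell from 92.2% of the first kb to 11.1% at 9 to 10 kb. H3K27me3 is not called within 2 kb there by definition, and it covered 2.49% at 9 to 10 kb downstream, 8.26% at the same distance upstream and 11.7% at 49 to 50 kb downstream. Around the 1088 starts with H3K27me3 only, the mark covered 74.9% of the first kb and 35.7% at 9 to 10 kb.

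**Figure D3:**
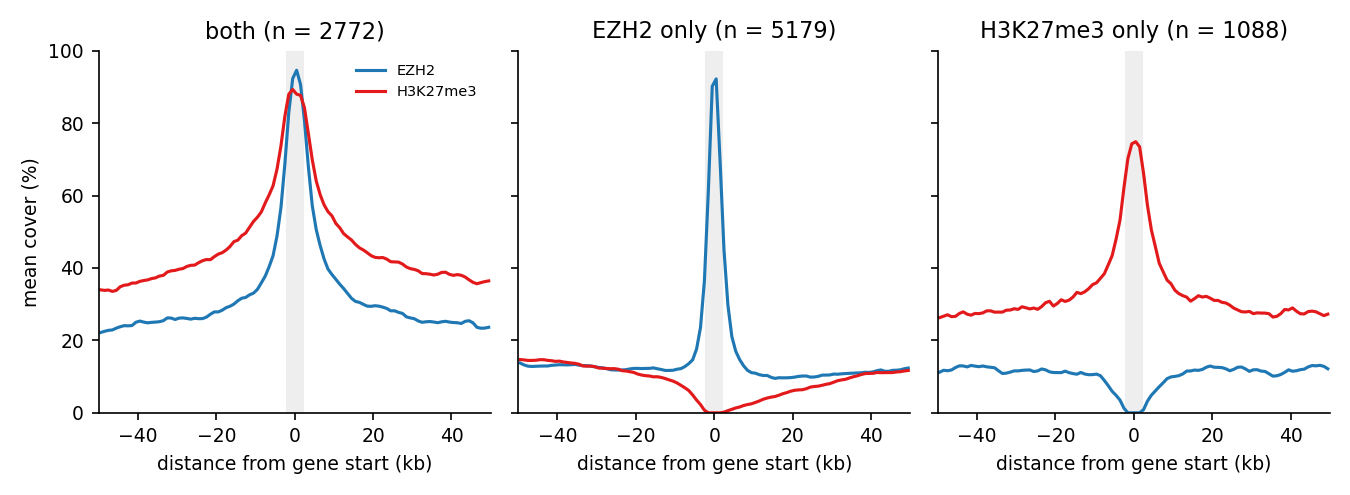
Mean percent of each 1 kb step covered by EZH2 (blue) and H3K27me3 (red) from 50 kb upstream to 50 kb downstream of protein-coding starts in DMSO cells, oriented by strand, by class of the start. The grey band marks the 2 kb either side that set the class. With both, the mark is the broader curve, and with EZH2 only the blue curve falls to 11.1% at 9 to 10 kb.

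Base composition, which played no part in the classes, differed between them too. A promoter here is the 250 bases before and 50 after a start, and CpG-rich means an observed to expected CpG ratio of at least 0.6 with at least 50% G and C. Among 14764 promoters with an entry within 2 kb of the scored start, 64.4% were CpG-rich. The share was 85.2% (84.2 to 86.2) with EZH2 only, 65.7% (63.9 to 67.6) with both, 34.7% (31.7 to 37.7) with H3K27me3 only and 51.8% (50.5 to 53.0) with neither. The median number of CpG in 300 bases was 26, 24, 8 and 17 in the same order. Turned round, CpG-rich promoters had EZH2 only at 44.7% and other promoters at 14.0%, while both were called at 17.8% and 16.8%. H3K27me3 only was called at 3.60% of CpG-rich and 12.2% of other promoters. Of the promoters printed above, PRM2, with 5 CpG in 200 bases, is an EZH2-only start with few CpG, and PPIH, with 19, an H3K27me3-only start with many.

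Gene groups fell into different classes. Over all 19974 protein-coding genes, with those without strand counted where both ends gave the same call, the background was 16.7% for both, 27.2% for EZH2 only, 6.07% for H3K27me3 only and 41.7% for neither. This background mixes 2 scoring rules. EZH2 only was called at 32.8% of genes with strand and 6.10% of those without, and 39.9% of the latter had ends that differ. Lists hold unequal shares of genes without strand, and comparisons with the background were not corrected for it. All 39 HOX genes, which set positional identity, had both. Of 80 other developmental transcription factors 65 had both (81.2%), 6 EZH2 only, 0 H3K27me3 only and 5 neither. The domains at PAX2, a kidney and eye regulator, measured 32.6 kb for EZH2 and 59.6 kb for H3K27me3, those at PAX3 26.0 and 40.2 kb, at PAX1 29.0 and 30.6 kb, and at PAX5 30.2 and 71.4 kb. EZH2 without the mark was called at GATA2, a blood cell factor, over 40.6 kb, and at LHX4, ISL2 and IRX2 over 5.6, 4.4 and 57.2 kb. The 5 factors with neither were PAX8, SOX10, SOX11, DLX2 and TBX18. Both were called at 23 of 34 neuronal genes, such as NEUROG1 (24.8 kb of EZH2 and 65.8 kb of H3K27me3), NEUROG2, NEUROG3 and NEUROD1, and at 26 of 46 secreted ligands of the WNT, BMP, FGF and Hedgehog families, such as WNT1 (14.2 and 43.4 kb), WNT2, WNT3 and WNT3A. They were called at 24 of 44 collagen genes, 39 of 95 potassium channel genes and 23 of 53 clustered protocadherins, of which 0 had EZH2 only. Both were also called at 24 of 51 forkhead factors (47.1%) and 11 of 28 mesenchymal genes (39.3%). They were called at 6 of 20 blood and immune cell genes (30.0%, 11.9 to 54.3) and 22 of 94 keratin-associated protein genes (23.4%, 15.3 to 33.3). The limits of these last shares include the 16.7% of all genes. At 509 zinc finger genes the calls were 32 with both (6.29%), 142 with EZH2 only (27.9%), 26 with H3K27me3 only (5.11%) and 282 with neither (55.4%). The shares with EZH2 only and with H3K27me3 only were near those of all genes.

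Both were called at 7 of 15 muscle genes (46.7%, against 16.7% of all genes). H3K27me3 was the wider at 5 of these, as at 54 of the 65 developmental factors and 25 of the 26 ligands with both, with a median of 12.4 kb for EZH2 and 56.8 kb for H3K27me3. The myogenic regulator MYOD1 had 9.8 and 56.8 kb, MYOG 20.2 and 67.2 kb, DES, the muscle intermediate filament, 12.4 and 37.6 kb, and MYF5 5.6 kb of each. The neighbouring myosin genes MYH6 and MYH7 had the same widths, 22.2 and 103.6 kb, and are named because they bear on that count. The mark alone was called at MYF6 (4.4 kb), TNNT2, cardiac troponin T (23.8 kb), and CKM, muscle creatine kinase (4.4 kb). Of 25 urothelial genes 8 had EZH2 only (32.0%, near the 27.2% of all genes) and 7 had both (28.0%, 12.1 to 49.4). The limits for both include the 16.7% of all genes. GATA3 had 41.6 kb of EZH2 and 19.6 kb of H3K27me3, the luminal factor FOXA1 22.6 kb of each, GRHL3 9.2 and 10.4 kb, and FGFR3, a growth factor receptor, 25.6 and 10.6 kb. UPK1B, PPARG, KRT7 and KRT8 were among those with EZH2 only, and the uroplakin UPK1A had the mark without EZH2 (16.0 kb). UPK2, another uroplakin, had 5.4 kb of the mark and no EZH2 at one end of its record only, and is counted with the genes whose ends differ.

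EZH2 without H3K27me3 was the most frequent call at housekeeping, ribosomal protein and histone genes. It was called at 28 of 35 housekeeping genes (80.0%), 62 of 84 ribosomal protein genes (73.8%), 54 of 69 replication-dependent histone genes (78.3%) and 12 of 30 cell cycle genes (40%, with neither at the same number), against the 27.2% of all genes. The domain at ACTB, cytoplasmic actin, measured 12.6 kb, at GAPDH, a glycolytic enzyme, 10.6 kb, at PGK1 2.6 kb and at TBP, the TATA-binding protein, 3.2 kb. Both were called at 1 housekeeping gene, the proteasome gene PSMB2 (8.0 kb of EZH2 and 15.2 kb of H3K27me3), at 3 ribosomal protein and 2 histone genes. Among cell cycle genes CCNB1 (2.0 kb), CDK1 (2.8 kb), CDK2 (9.6 kb) and MKI67 (3.4 kb) had EZH2 only, CDK6 both, and E2F3 the mark alone. No source used here says whether the input served as control for the calls, and the input signal at these genes was not tested. Of 26 cell cycle inhibitors and tumour suppressors 11 had EZH2 only (42.3%, against 27.2% of all genes). Among them were CDKN1A (5.2 kb), CDKN2A (4.0 kb), CDKN2B (1.4 kb) and CDKN2C (3.4 kb), all inhibitors of cyclin-dependent kinases. CDKN1C, a growth inhibitor of the same kind, had 84.6 kb of EZH2 and 70.6 kb of H3K27me3, and RUNX3, DAB2IP and GADD45G were among 7 with both. These 7 are 26.9% of the list (11.6 to 47.8), with limits that include the 16.7% of all genes.

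H3K27me3 without EZH2 was called at 20% of the muscle list (3 of 15), 15.8% of the PRC1 list (3 of 19), 15.1% of the protocadherins (8 of 53), 15.0% of the blood and immune cell list (3 of 20) and 12.6% of the potassium channels (12 of 95), against 6.07% of all genes. Limits were not taken for the shares of this class. Those here and below that rest on 3 to 5 genes do not establish a difference from all genes. It was called at 30 of 392 olfactory receptor starts (7.65%), near that background, beside 12 with both and 1 with EZH2 only, and 87.8% of these receptors had neither. How reads that match several near-identical copies were counted is not stated, which touches receptor, histone, keratin and HLA genes. Among 27 basal and squamous keratinocyte genes the mark alone was called at 4 (14.8%), which were KRT6B (11 kb), KRT6C (8.8 kb), PI3, the protease inhibitor elafin (10.4 kb), and S100A7, psoriasin (12.2 kb). LORICRIN, a cornified envelope protein, had both, and KRT14, CD44, EGFR and DSC3 were among 7 with EZH2 only (25.9%, near the 27.2% of all genes). Among 39 antigen presentation and interferon response genes the mark alone was called at 5 (12.8%), which were HLA-DPB1 (14.8 kb), the neighbouring chemokines CXCL9, CXCL10 and CXCL11 (10.6, 10.8 and 10.8 kb) and CCL5 (29.8 kb). EZH2 only was called at 11 (28.2%, also near the share of all genes), such as HLA-C (4.0 kb), HLA-E (74.0 kb) and B2M (6.8 kb), and both at HLA-B and HLA-DPA1. CXCL10 and CXCL11 share 1 domain of the mark, as do HLA-DPB1 and HLA-DPA1, so these genes are not separate observations.

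Genes of the Polycomb machinery were found in each class. EZH2 only was called at 42.9% of the PRC2 list and 26.3% of the PRC1 list, against 27.2% of all genes, and neither at 42.9% and 31.6%, against 41.7%. Among 14 PRC2 and H3K27 demethylase genes, EZH2 (3.8 kb), EED (4.8 kb), RBBP4 (5.0 kb), JARID2 (9.2 kb), MTF2 (13 kb) and EPOP (6.2 kb) had EZH2 only. PHF19, a PRC2 cofactor, had the mark alone (12.6 kb), KDM6B, a demethylase of H3K27, had 24.6 kb of EZH2 and 132.2 kb of H3K27me3, and EZH1, SUZ12, RBBP7, AEBP2, PHF1 and KDM6A had neither. Of 19 PRC1 genes, whose complex ubiquitinates histone H2A and reads H3K27me3 through CBX proteins, BMI1 (5.6 and 3.6 kb), CBX2 (82.6 and 76.0 kb), CBX6 (20.4 and 24.2 kb) and CBX8 (82.6 and 30.2 kb) had both. RING1, RNF2, PCGF1, PCGF2 and PHC1 had EZH2 only, over 1.2, 2.2, 17.6, 7.0 and 3.2 kb, and PCGF5, CBX7 and PHC2 the mark alone, over 3.8, 9.4 and 12.6 kb. PCGF3, PCGF6, PHC3, RYBP, YAF2 and KDM2B had neither.

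**Figure D4:**
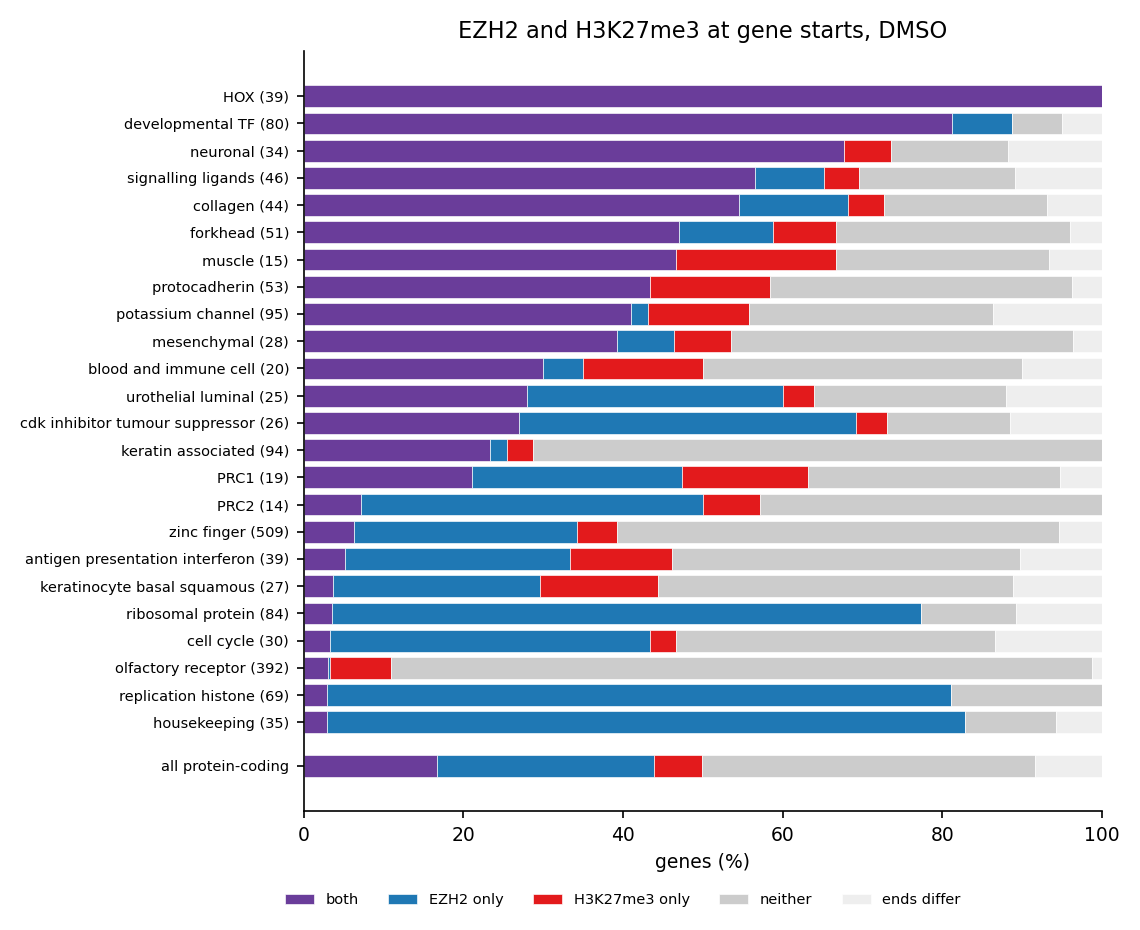
Percent of the genes of each list (number of genes in brackets) with both calls, EZH2 only, H3K27me3 only or neither at the start in DMSO cells, with all protein-coding genes at the foot. Ends differ marks genes without strand whose record ends gave different calls. HOX genes are all in the class with both, and housekeeping genes are at 80.0% in EZH2 only.

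At the HOX clusters both calls ran over most of the same stretch. The 39 genes lay on 5 combined domains. The domain of HOXA (chromosome 7, 27082201 to 27270800) measured 188.6 kb, with 174.8 kb of EZH2 in 1 piece and 188.6 kb of H3K27me3, and the mark went 2.4 and 11.4 kb past EZH2. That of HOXC (chromosome 12, 53921001 to 54094200) held 159.8 and 173.2 kb, with 0.8 and 1.8 kb of spread, and that of HOXD (chromosome 2, 176078201 to 176196800) 103.2 and 117.8 kb, with 0 and 4.0 kb. HOXB1 to HOXB9 (chromosome 17, 48521001 to 48655200) had 124.6 and 134.2 kb, and HOXB13 a domain of its own (48698201 to 48774000), with 52.0 and 75.8 kb and 13.6 and 9.4 kb of spread. These domains also held 8 microRNA genes, whose 13 mature arms in the reference all lay under both. Members of the miR-196 family, which target HOX transcripts, came from 3 of them and share the seed AGGUAGU, and miR-10a-5p lies in HOXB. Their sequences, from RefSeq on GRCh38.p14 with the seed (bases 2 to 8) in capitals, show this.
hsa-miR-196a-5p: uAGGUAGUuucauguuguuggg
hsa-miR-196b-5p: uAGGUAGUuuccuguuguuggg
hsa-miR-10a-5p: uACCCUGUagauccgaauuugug

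The widest domains with a gene start show how differently the 2 calls can be laid out. At SOX4 (chromosome 6, 21552201 to 21851000) the mark spanned 298.8 kb and EZH2 244.0 kb. At COL4A2 (chromosome 13, 110253601 to 110530200) EZH2 spanned 276.6 kb and the mark 257.2 kb in 2 domains. At KCNG4, a potassium channel subunit (chromosome 16, 84183201 to 84447000), 8 EZH2 domains totalling 216.0 kb lay on 1 H3K27me3 domain of 258.2 kb. At TVP23A (chromosome 16, 10733401 to 10986000) EZH2 was the longer by more, with 252.6 kb against 154.6 kb of the mark. ELFN2 had 232.8 and 256.4 kb, BHLHE23, a neuronal transcription factor, 243.2 and 242.6 kb, FIBCD1 232.8 and 232.4 kb, and HMCN2, an extracellular matrix protein, 218.8 and 210.8 kb.

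The widest EZH2-only domains with a start were at LITAF (197.2 kb, chromosome 16, 11521001 to 11718200), TUBB (124.8 kb, chromosome 6, 30667601 to 30792400), PRM2 (104.2 kb), BZW2 and AHR, the aryl hydrocarbon receptor (82.4 kb each), KLHDC9 (77.2 kb), ZC3H7A (72.8 kb) and IGSF9 (70.8 kb). LITAF, PRM2 and ZC3H7A lie within a stretch of chromosome 16 from 11265401 to 11839200, and BZW2 and AHR on chromosome 7 between 16628201 and 17729600. Copy number at these stretches was not tested. The widest H3K27me3-only domain with a start was at E2F3 (180.6 kb, chromosome 6, 20223001 to 20403600), followed by PPIH (69.4 kb), CD300LB, a myeloid receptor (52.4 kb), SH2D1B, a natural killer cell adaptor (46.8 kb), ESRRB, an orphan nuclear receptor (42.6 kb), CCDC42 (40.8 kb), SEPTIN14 (40.2 kb) and KCNA10 (37.0 kb). The E2F3 domain starts upstream of the gene and ends in it, next to the start at 20401879.

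Chromosomes differed in how much of the mark lay under EZH2. The percent of H3K27me3 length under EZH2 had a median of 44.2 over 23 chromosomes, with an SD of 6.56 over the 22 autosomes. It was lowest on X (24.3%) and chromosome 15 (28.0%) and highest on chromosomes 16 (53.9%) and 9 (54.2%). X also had the lowest EZH2 and H3K27me3 cover of the span to its last gene record, 1.01% and 2.97%, against medians of 5.98% and 9.93%, and the highest share of H3K27me3-only domains (62.8%, 480 of them, against a median of 46.2%). Chromosome 20 had the highest cover, 16.2% for EZH2 and 24.4% for H3K27me3. The percent of EZH2 length under H3K27me3 did not follow the same order. It was 71.9 on X, near the 72.2 of the autosomes, lowest on chromosomes 3 (62.2) and 1 (62.5) and highest on chromosome 21 (85.6).

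The lists from CPI-0209 cells gave a readout that the classes did not use. The H3K27me3 list covered 113.8 Mb there against 315.1 Mb in DMSO cells, and the EZH2 list 226.3 Mb against 193.4 Mb. The make-up of the lists differed too. Of the H3K27me3 length, 12.9% lay under 2 rows in CPI-0209 cells and 62.7% in DMSO cells. For EZH2 these were 50.8% and 17.8%. The lists of the 2 treatments may therefore not be alike in how they were made, which limits each comparison between them. After CPI-0209, H3K27me3 was called in 6793 of 7756 domains with both (87.6%, 86.8 to 88.3), 1862 of 13532 H3K27me3-only domains (13.8%, 13.2 to 14.4) and 51 of 7799 EZH2-only domains (0.654%, 0.487 to 0.859). EZH2 was called in 7469 domains with both (96.3%), 5903 EZH2-only domains (75.7%) and 3736 H3K27me3-only domains (27.6%). These counts need 1 bp to be shared, which a wide domain meets more easily. Of the H3K27me3 length, 51.5% was called again in domains with both and 6.73% in H3K27me3-only domains. Of the EZH2 length, 87.2% was called again in domains with both and 49.5% in EZH2-only domains.

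The position of H3K27me3 relative to the EZH2 edge went with whether it was called again. Deep under EZH2, 20 to 50 kb from its edge, 87.5% of the DMSO H3K27me3 length was called in CPI-0209 cells, and the share fell outward through 79.7% at 5 to 10 kb, 69.3% at 2 to 5 kb and 53.7% at 1 to 2 kb to 38.2% in the last kb under EZH2. Depth under EZH2 is greater in wide EZH2 domains, but in those of 20 kb and wider alone the share also fell, from 84.1% at 10 to 20 kb to 44.0% in the last kb. In the first kb outside EZH2 it was 19.9%, and further out 13.2% at 1 to 2 kb, 12.6% at 2 to 5 kb, 13.9% at 5 to 10 kb, 15.0% at 10 to 20 kb and 9.42% at 20 to 50 kb. In domains without EZH2 it was 6.73%. The share of length under 2 rows of the DMSO list moved the same way, from 96.4% deep under EZH2 through 76.4% in its last kb and 56.9% in the first kb outside to 33.1% in domains without EZH2. Within stretches under 2 rows, 73.6% was called again under EZH2, 24.3% outside EZH2 in the same domains and 16.2% in domains without EZH2. Within stretches under 1 row these were 18.6%, 4.34% and 2.05%.

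**Figure D5:**
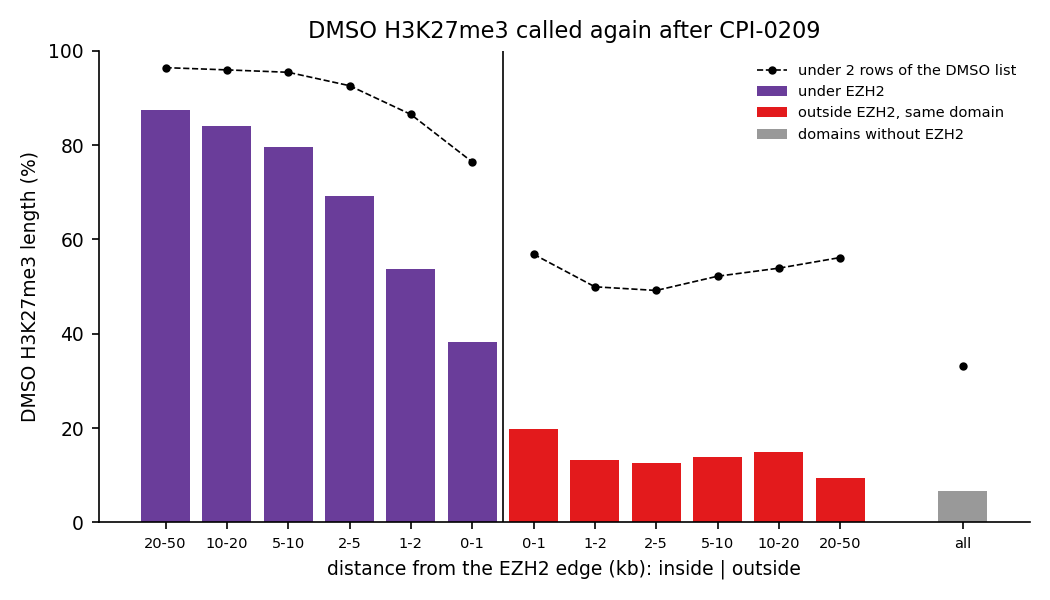
Percent of the DMSO H3K27me3 length that the CPI-0209 list covers (bars), by distance in kb from the edge of EZH2 in DMSO, under EZH2 (left of the line), outside it in the same domains (right of the line) and in domains without EZH2 (grey). Points joined by a dashed line give the percent of the same length under 2 rows of the DMSO list. Bars fall from 87.5% to 38.2% under EZH2 and stand between 9.42% and 19.9% outside.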

How the data were processed

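ChIP-seq of HT1376 cells with antibodies against EZH2 and H3K27me3 was analysed from 4 interval lists (2 from DMSO and 2 from CPI-0209 cells, 1 library each). The 1 input library was not analysed here. The submitters' processing notes name BWA, SICER and the build hg38, with no versions or settings. Per the file headers, a deposited list gives chromosome, start and end and nothing else, so no count, score or p-value was available and depth is unknown. A library with fewer reads can yield fewer and narrower calls. Starts and widths were checked to be multiples of 200 bp, and at most 2 rows of a list cover any position.

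Rows of a list that overlapped were merged, and rows that only touched were not. Combined domains are connected runs of domains of both lists. Coordinates are printed counting from 1. Genes were taken from RefSeq records on GRCh38.p14, to which hg38 corresponds, with 19974 protein-coding records on the 23 chromosomes. Strand came from the RefSeq promoter table, which matched 15813 of them. For these the start is the 5′ end of the record, and the other 4161, among them those of chromosome 8, were scored at both ends. Starts inside a record were not scored. Exons, introns and UTRs were not told apart. All listed genes were found by symbol, older symbol or name pattern, and a few belong to 2 lists. A width given for a gene belongs to the widest domain of the list that touches its window.

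Genes named are those at the 8 widest combined domains of each class with a start, 1 per domain, uncharacterised records passed over. From the lists, the first 4 members of a class described are named, or all where it holds 5 or fewer, and the members of the PRC2 and PRC1 lists. Not every class of every list is described, and a few genes that this rule names are not reported here. The members and lists were chosen with earlier results of these data known. Python 3.11.15, numpy 2.4.6, pandas 2.3.3 and scipy 1.17.1 were used, and the interval code was tested on simulated data. Alternatives were gaps under 5 kb joined, domains under 1 kb left out, the H3K27me3 list shortened by its widest domains, overlap of 50% of the narrower domain, a 500 bp window, 50% of the window covered and, chosen after seeing the data, only stretches under 2 rows.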

Additional observations from a re-analysis of the deposited data

How the results depend on the processing

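No paired analysis was possible because each group has 1 library, and no replicate could be left out. Leaving out domains under 1 kb gave 44.3% of H3K27me3 length under EZH2, 79.9% EZH2 cover at the middle of H3K27me3 domains and 35.8% of H3K27me3 length called again after CPI-0209. Joining domains under 5 kb apart gave 52.4% of EZH2 domains on H3K27me3, 41.1% of H3K27me3 domains with EZH2, 44.3% of H3K27me3 length under EZH2, 69.8% cover at the middle, a median spread of 2.0 kb and 34.3% called again. Shortening the H3K27me3 list to the EZH2 length gave, in the same order, 37.3%, 79.0%, 59.7%, 74.7%, 2.6 kb and 48.8%, with both calls at 9.73% of starts. Stretches under 2 rows gave 50.5%, 12.1%, 10.8%, 62.8%, 2.2 kb and 54.5%, with both at 6.91% of starts. The last 2 settings hold less length by construction, and each can lengthen the median spread by what it keeps. Overlap of 50% of the narrower domain gave 57.3% of EZH2 and 36.6% of H3K27me3 domains. A 500 bp window gave 15.9% of starts with both, and 50% of the window covered 14.9%. H3K27me3 under EZH2 was called again more than H3K27me3 outside it in each of the 4 settings that changed the domains, at 66.6% against 8.67% with gaps joined, 68.6% against 9.71% without narrow domains, 72.0% against 14.5% with the list shortened and 91.9% against 50% under 2 rows. Depth is unknown, so a missing call does not show that the mark or EZH2 was absent.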

Other observations

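Non-coding gene records were counted by the calls that they overlapped. No share over all gene records was taken by this count, so no kind is called high or low here. Of 443 tRNA gene records on the 23 chromosomes 159 (35.9%) overlapped EZH2 without H3K27me3, 107 (24.2%) both and 18 (4.06%) H3K27me3 alone. Of 18177 lncRNA records 17.2% overlapped both, 11.5% EZH2 alone and 11.5% H3K27me3 alone. Of 1911 miRNA records 10.6% overlapped both, 9.99% EZH2 alone and 6.17% H3K27me3 alone. Small nucleolar RNA records, 1196 in all, overlapped EZH2 alone at 11.2%, both at 2.84% and H3K27me3 alone at 4.52%. Pseudogenes, 15212 in all, overlapped H3K27me3 alone at 9.39%, both at 6.11% and EZH2 alone at 1.66%. Records differ in length between these kinds, and the shares were not corrected for it.

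Wide domains of a single kind were few. There were 46 EZH2-only domains of 40 kb or wider, on 11 chromosomes, against 1458 domains with both on 23. Of the 46, 8 lay between 91850201 and 94750400 on chromosome 1, 6 between 16628201 and 17729600 on chromosome 7, and 3 between 11265401 and 11839200 on chromosome 16. The widest, 229.6 kb on chromosome 6 from 19253001 to 19482600, overlapped no protein-coding record. On the same chromosome the widest H3K27me3-only domain (180.6 kb, at E2F3) and the widest domain with both (358.4 kb, 21192801 to 21551200, overlapping CDKAL1) were found. The next widest with both, at SOX4, starts at 21552201. The widest domains of each class thus lie close together on chromosome 6. Copy number was not measured, and whether it bears on these widths was not tested. There were 42 H3K27me3-only domains of 40 kb or wider, on 15 chromosomes, and at most 3 of them shared a fixed window of 5 Mb. These windows start at multiples of 5 Mb, so close neighbours can be split. On chromosome 6 a domain of 126.0 kb (19953201 to 20079200) lies near that at E2F3 (20223001 to 20403600) but in another window.

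Markers fixed for the cell line's origin were read for their calls only. Of the urothelial and epithelial markers, KRT8 and KRT18, which share a domain of 17.2 kb, UPK1B and PPARG had EZH2 without the mark, UPK1A the mark without EZH2, GATA3 and FOXA1 both, and UPK3A and KRT20 neither. The blood markers PTPRC and SPI1 had neither. The fibroblast markers COL1A1 and TWIST1 had both, with 33.6 and 27.4 kb of EZH2, and PDGFRB had neither. The record ends of UPK2, EPCAM, CDH1 and CD3E gave different calls. Calls of EZH2 and its mark give no expression level, and no cell type was named from these calls.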
